A study of Homo sapiens with 60 samples.

Results

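CXCL1, CXCL2, CXCL3, CXCL8 and CCL20, 5 chemokine genes known from intestinal epithelium, were followed across the RNA-seq libraries of HT29 cells, a human colorectal adenocarcinoma line, after 24 h with herbal extracts or vehicle. They were taken by symbol and are 5 of the 60675 genes in the deposited table. All 5 stood higher in every library treated with a water extract than in vehicle, from 3.07-fold to 37.5-fold by group. With ethanol extracts 3 of 60 tests were called, CXCL8 with dried ginger and CXCL8 and CCL20 with skullcap root, each at the high dose.

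Chemokines are secreted proteins that guide white blood cells along a gradient. CXCL1, CXCL2, CXCL3 and CXCL8 belong to the CXC family, bind the receptor CXCR2 (CXCL8 also binds CXCR1) and draw neutrophils. CCL20 belongs to the CC family and is the chemokine ligand of CCR6, found on immature dendritic cells, B cells and Th17 cells, and it is made by the epithelium over lymphoid follicles of the gut. In colon epithelial cells their transcription is known to be switched on by NF-kB after IL-1, TNF, IL-17 or bacterial products, and their mRNAs carry AU-rich elements that mark them for rapid decay.

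The 60 libraries fall into 25 groups. Vehicle (DMSO, 0.1% in the sample labels but another figure in the series text) had n = 3. Multi-herb formulas were extracted in water: Sayeok-tang, with 3 libraries at each dose, and Bojungikgi-tang, with 2. Single herbs were extracted in 70% ethanol. Scutellariae Radix (skullcap root), Pinelliae Tuber and ginger, the latter dried (Zingiberis Rhizoma) or fresh (Zingiberis Rhizoma Recens), had 3 libraries at each dose, whereas Coptidis Rhizoma and Zizyphi Fructus (jujube) had 1. The low dose was 20, the medium 100 and the high 500 µg/mL, except that Coptidis Rhizoma was given at 12.8, 64 and 320 µg/mL. The sample codes put both water extracts in 1 set and the ethanol extracts and vehicle in others, so that solvent, formula and code set cannot be told apart, and every contrast with vehicle is also one of code sets. The labels name no separate cultures, and p-values then measure the spread between these libraries, which may be technical.

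Library totals, in counts divided by 1000000, were 18.02 to 35.82 (median 24.46), with 21.27 to 35.82 in vehicle, 18.35 to 27.3 with water extracts and 18.02 to 29.43 with ethanol extracts. In HT29, all 8 colon epithelial markers (among them EPCAM, CDX2, VIL1 and CDH17) had a mean above 1 count per 1000000 counts (CPM). Of 9 leukocyte markers 4 did (CD14, CD68, LYZ and ITGAM), CD3E, CSF3R and PTPRC had at most 2 counts in a library, and S100A8 had none. The summed leukocyte list spanned 1734 to 1931 CPM in vehicle, 1749 to 1901 CPM with water extracts and 1222 to 2436 CPM with ethanol extracts, nearly all of it LYZ, so the ranges with water and vehicle overlapped. The summed colon epithelial list spanned 11642 to 13750 CPM in vehicle, 9819 to 11604 CPM with water extracts and 8291 to 14982 CPM with ethanol extracts, so every water-extract library lay below every vehicle library but within the range of ethanol extracts. Most of that sum was KRT8 and KRT18. Their medians were 5739 and 3550 CPM with water extracts and 5657 and 3550 CPM over vehicle and ethanol libraries together. Most of the latter are ethanol libraries, so these medians do not bear on the difference from vehicle. Over 10 median absolute deviations from the median in mitochondrial or ribosomal protein share, 3 libraries stood apart: vehicle replicate 1, Pinelliae Tuber high-dose replicate 2 and Scutellariae Radix low-dose replicate 3. Members whose calls change without them are named below, with the adjusted p found without them.

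On GRCh38 with GENCODE 29, CXCL8 (ENSG00000169429, chromosome 4, 73740506 to 73743716, plus strand), CXCL1 (ENSG00000163739, 73869393 to 73871242, plus strand), CXCL3 (ENSG00000163734, 74036589 to 74038807, minus strand) and CXCL2 (ENSG00000081041, 74097035 to 74099293, minus strand) lie within 358788 bp that hold 16 annotated genes, 9 of them protein coding. CCL20 (ENSG00000115009) is on chromosome 2, 227805739 to 227817564, plus strand. The coding sequences of CXCL1, CXCL2 and CXCL3 are near copies, with 93.5% identity between CXCL1 and CXCL2, 90.7% between CXCL1 and CXCL3 and 94.4% between CXCL2 and CXCL3. Identity was 46.7% to 52.8% in every pair with CXCL8 or CCL20. The deposited values of the 5 genes were whole numbers in 60 of 60 libraries, but reads from near copies can be assigned to either, so the split among CXCL1, CXCL2 and CXCL3 is less certain than their sum.

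The promoter stretch shown for each gene is the 30 bases around its best match to a kappa B motif, the DNA site of NF-kB, because members on different chromosomes moved together. It is read 5′ to 3′ on the gene's strand from RefSeq promoters on GRCh38.p14, all 5 genes matching by symbol, and capitals mark the match to GGAATTTCC or to the 10-base kappa B consensus on either strand. Positions are counted back from the RefSeq start. GENCODE 29 places the first base of CXCL2, CXCL3, CXCL8 and CCL20 farther upstream.
CXCL1 (chr4:73869305-73869334, plus strand): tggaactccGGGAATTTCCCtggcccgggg
CXCL2 (chr4:74099253-74099282, minus strand): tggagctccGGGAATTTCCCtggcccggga
CXCL3 (chr4:74038748-74038777, minus strand): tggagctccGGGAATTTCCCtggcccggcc
CXCL8 (chr4:73740468-73740497, plus strand): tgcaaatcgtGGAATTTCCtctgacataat
CCL20 (chr2:227813753-227813782, plus strand): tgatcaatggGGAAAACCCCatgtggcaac

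GGAATTTCC stood at bases -78 to -70 of CXCL1 and CXCL3, -77 to -69 of CXCL2 and -91 to -83 of CXCL8. In the 250 bases before the start it was in 4 of 5 members and in 0.413% of 35116 RefSeq promoters. CCL20 held no such run; its match to the consensus lies on the minus strand at -79 to -70. The consensus, which overlaps the shorter run in CXCL1, CXCL2 and CXCL3, was in 4 of 5 members (not CXCL8) and 5.21% of promoters. Over the 120 bases before the start, CXCL1, CXCL2 and CXCL3 were 88.4% to 93.4% identical in pairs. Their matches to either motif are therefore not independent of each other. TATAAA was in CXCL8 (-31 to -26) and CCL20 (-29 to -24) and in 10.7% of promoters. Both strands were searched, the motifs were chosen after the sequences had been read, and a match is a description of letters, not of binding.

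Without extract the 5 genes were expressed at low levels. Per kilobase of exon, the scale on which genes can be compared, vehicle means were 2.08 CPM for CXCL8, 1.18 for CXCL1, 0.402 for CXCL3, 0.304 for CXCL2 and 0.144 for CCL20. In Bojungikgi-tang at the medium dose, where all but CXCL2 reached their highest group mean, the same quantity was 22.7 for CXCL1, 14.3 for CXCL8, 5.30 for CCL20, 2.43 for CXCL3 and 1.5 for CXCL2. CXCL1 thus passed CXCL8, and CCL20 passed CXCL3 and CXCL2, in the group means. All levels from here on are CPM per library, scaled by edgeR's TMM factors and not by length.

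**Figure D1:**
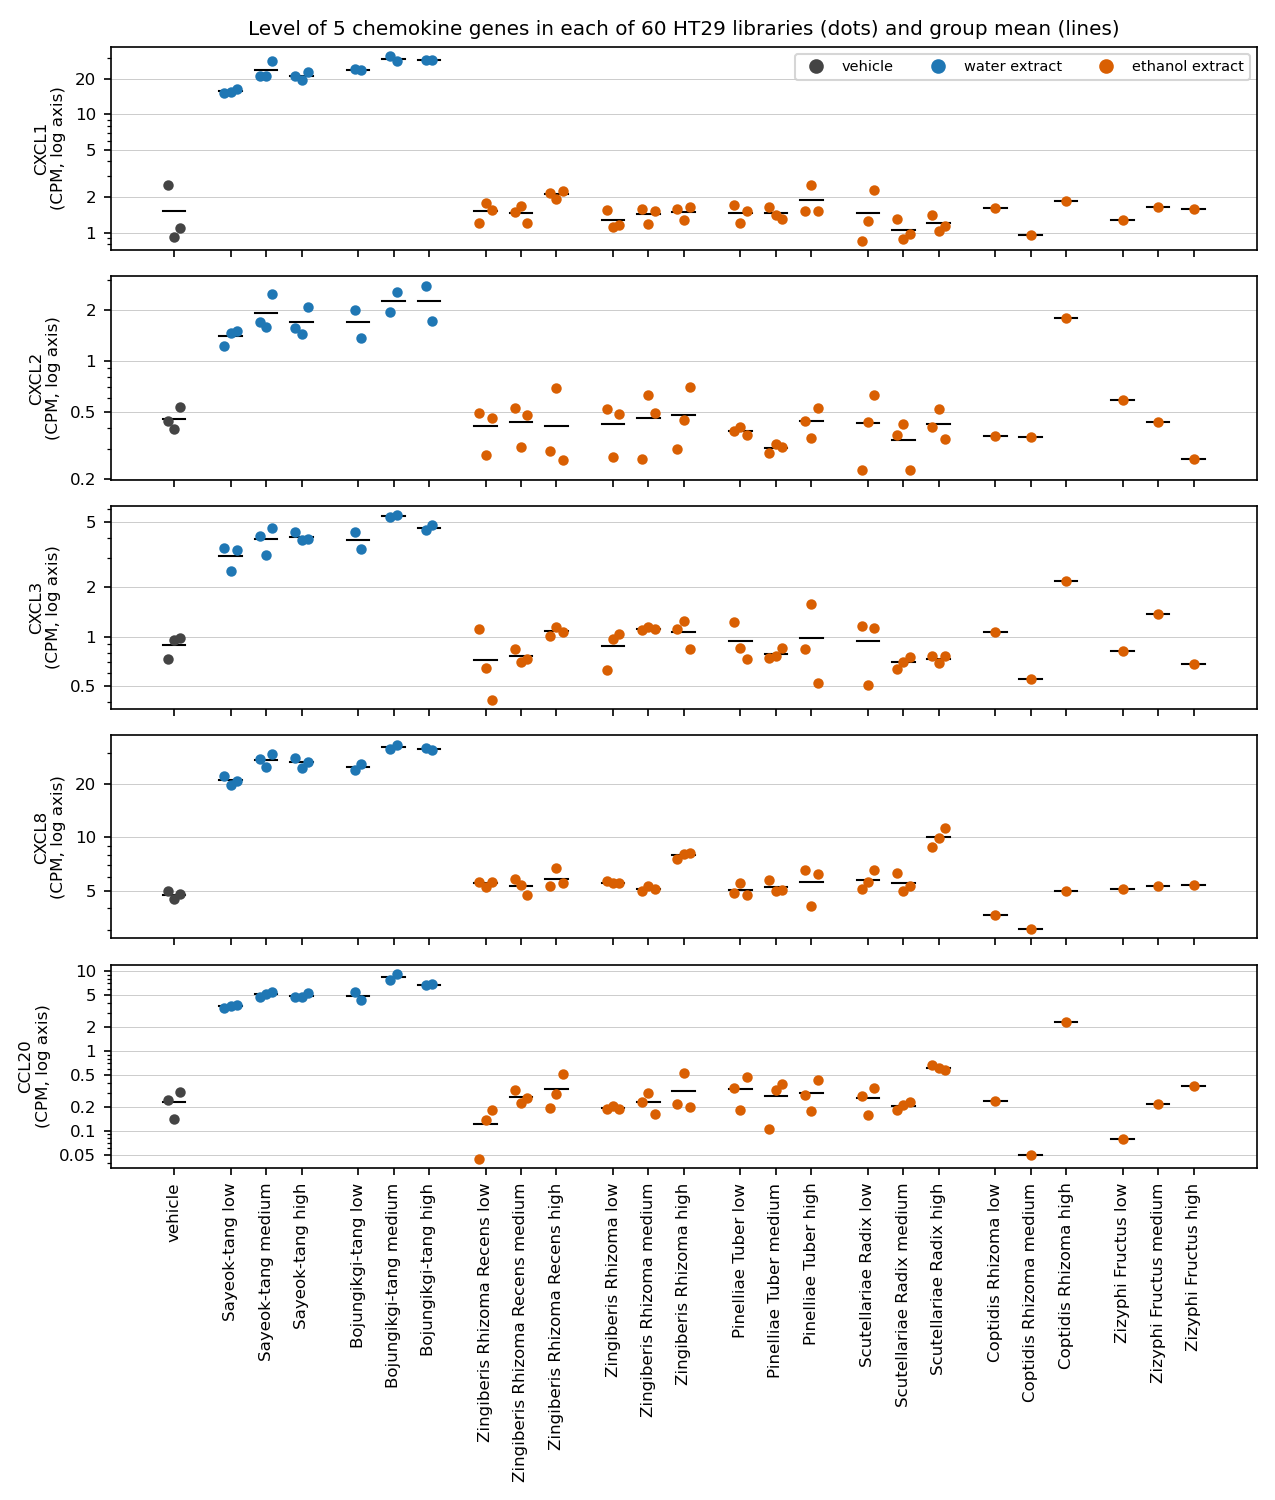
CPM (log axis, 1 panel per gene) in each of 60 libraries, ordered by extract and dose, with dots for libraries and a line for the group mean. Water-extract libraries sit above every vehicle library for all 5 genes, and the single Coptidis Rhizoma high-dose library stands out for CXCL2 (1.79 CPM), CXCL3 (2.17 CPM) and CCL20 (2.28 CPM).

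CXCL1, a neutrophil attractant first known as a melanoma growth factor, measured 2.55, 0.926 and 1.10 CPM in vehicle. With Sayeok-tang it measured 15.0, 15.5 and 16.2 CPM at the low dose, 21.0, 21.2 and 28.1 CPM at the medium dose and 21.2, 19.3 and 22.6 CPM at the high dose. With Bojungikgi-tang it measured 23.9 and 23.4 CPM at the low, 30.8 and 28.0 CPM at the medium and 28.8 and 28.7 CPM at the high dose. Every treated library lay above the highest vehicle library, which was vehicle replicate 1, the one that stands apart. The log2 fold change to vehicle ran from 3.45 ± 0.20 (SE) with Sayeok-tang low dose to 4.37 ± 0.21 with Bojungikgi-tang medium dose (edgeR quasi-likelihood test, Benjamini-Hochberg adjusted p = 1.7e-16 and 6.7e-20).

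CXCL8, interleukin-8, the main neutrophil attractant of human epithelium, measured 5.00, 4.46 and 4.75 CPM in vehicle. With Sayeok-tang it was at 22.4, 19.9 and 21.0 CPM (low), 27.9, 25.0 and 29.7 CPM (medium) and 28.4, 24.7 and 26.9 CPM (high). With Bojungikgi-tang it was at 24.2 and 26.1 CPM (low), 31.7 and 33.6 CPM (medium) and 32.0 and 31.5 CPM (high). Vehicle libraries lay close together and far below all treated ones. The log2 fold change to vehicle ran from 2.16 ± 0.11 with Sayeok-tang low dose to 2.79 ± 0.12 with Bojungikgi-tang medium dose (edgeR adjusted p = 2.5e-18 and 1.0e-21).

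CCL20, the CCR6 ligand, rested on 5, 5 and 8 counts in vehicle, or 0.245, 0.140 and 0.304 CPM. With Sayeok-tang it was at 3.40, 3.66 and 3.77 CPM (low), 4.69, 5.22 and 5.45 CPM (medium) and 4.73, 4.78 and 5.32 CPM (high). With Bojungikgi-tang it was at 5.55 and 4.30 CPM (low), 7.73 and 9.16 CPM (medium) and 6.76 and 6.81 CPM (high). As a ratio, though not in CPM, the lowest treated library exceeded the highest vehicle library more than for any other member. The log2 fold change to vehicle ran from 4.00 ± 0.28 with Sayeok-tang low dose to 5.23 ± 0.27 with Bojungikgi-tang medium dose (edgeR adjusted p = 5.1e-14 and 2.2e-18).

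CXCL2 and CXCL3, close relatives of CXCL1, had fewer counts and smaller changes. CXCL2 had 9, 14 and 14 counts in vehicle (0.441, 0.393 and 0.532 CPM) and spanned 1.23 to 2.78 CPM over the 15 water-extract libraries, with a median of 1.70 CPM. CXCL3 was at 0.736, 0.954 and 0.988 CPM in vehicle and spanned 2.52 to 5.47 CPM, with a median of 4.09 CPM. Neither overlapped vehicle. Log2 fold changes to vehicle by group were 1.62 to 2.31 for CXCL2 and 1.77 to 2.57 for CXCL3.

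Across both water extracts and 3 doses, 30 of 30 tests of a member against vehicle were called higher (edgeR, adjusted p under 0.05 over 16763 genes), all against the same 3 vehicle libraries. Of all genes tested, 1.26%, 0.453% and 1.59% were called higher with Sayeok-tang at the high, medium and low dose, and 0.334%, 0.787% and 0.239% with Bojungikgi-tang. The count was again 30 without the 3 libraries that stand apart. CXCL2 with Bojungikgi-tang at the low dose, on 49 and 35 counts, lost its call without 1 of those 2 libraries (log2 fold change 1.59, edgeR adjusted p = 0.13 without replicate 2, where the 1 library left is assumed to vary like the other groups) and in a fit of only the libraries compared (1.88, adjusted p = 0.070). The summed colon epithelial markers, mostly KRT8 and KRT18, were lower in all 15 water-extract libraries than in vehicle, and their part in these results was not tested. In bulk RNA, more cells that express a gene and more RNA per cell cannot be told apart.

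**Figure D2:**
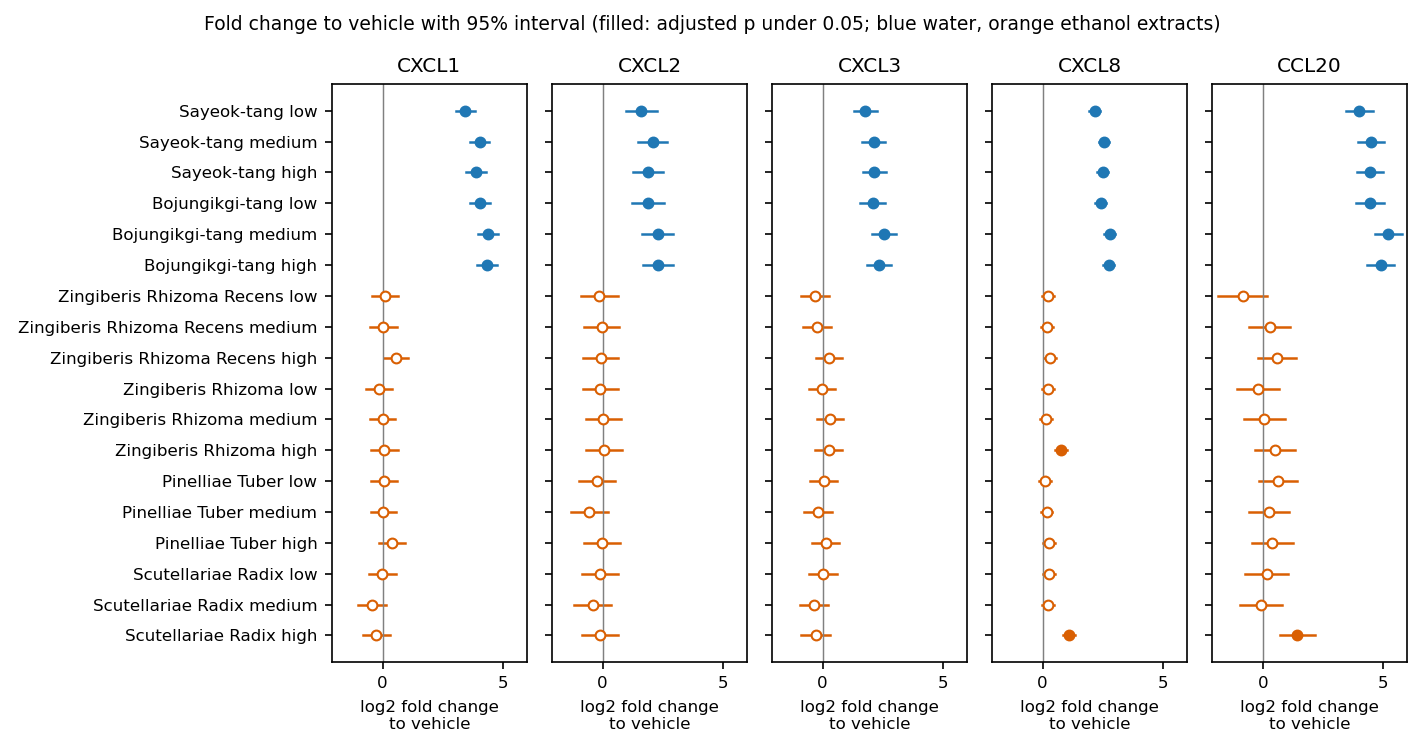
Log2 fold change to vehicle with its 95% interval for the 5 genes (panels) in 18 groups with replicates (rows), filled where the adjusted p is under 0.05. All 30 water-extract points are filled and lie between 1.62 and 5.23, and of 60 ethanol-extract points 3 are filled.

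The members did not change by the same factor. In counts within a library, a ratio used here only to compare libraries, CXCL8 to CXCL1 was 1.96 to 4.82 in vehicle and 1.01 to 1.49 in the 15 water-extract libraries. The ratio of CXCL8 to CCL20 was 15.6 to 31.8 in vehicle and 3.67 to 6.57 with water extracts. CXCL1 to CXCL2 went the other way, from 2.07 to 5.78 in vehicle to 10.4 to 17.1. None of these ranges overlapped.

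Over 42 ethanol-extract libraries CXCL1 spanned 0.855 to 2.55 CPM with a median of 1.53 CPM, where vehicle spanned 0.926 to 2.55 CPM. CXCL2 spanned 0.225 to 1.79 CPM (median 0.405), CXCL3 0.415 to 2.17 CPM (median 0.847), CXCL8 3.02 to 11.3 CPM (median 5.45) and CCL20 0.0446 to 2.28 CPM (median 0.227). In CXCL1, CXCL8 and CCL20 every one of the 15 water-extract libraries lay above every ethanol library, and in CXCL3 too. In CXCL2 the 1 library of Coptidis Rhizoma at the high dose lay within the water-extract range, and the other ethanol libraries reached 0.696 CPM at most.

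With skullcap root at the high dose, CXCL8 was at 8.78, 9.90 and 11.3 CPM, above every vehicle library and every other ethanol-extract library. Its log2 fold change to vehicle was 1.09 ± 0.12 (n = 3 against 3, edgeR adjusted p = 8.2e-10). CCL20 was at 0.660, 0.605 and 0.572 CPM there, on 13 to 15 counts, and its log2 fold change was 1.45 ± 0.36 (edgeR adjusted p = 0.0024). CXCL1 (-0.25 ± 0.28), CXCL2 (-0.10 ± 0.37) and CXCL3 (-0.29 ± 0.29) were not called, with 95% intervals of -0.82 to 0.31, -0.85 to 0.65 and -0.88 to 0.30. Of all genes, 11.5%, 4.89% and 0.209% were called higher with this extract at the high, medium and low dose, so 2 of 5 members at the high dose stands beside a broad response.

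Dried ginger at the high dose had CXCL8 at 7.56, 8.10 and 8.21 CPM, above all vehicle libraries. The log2 fold change was 0.75 ± 0.12 (n = 3 against 3, edgeR adjusted p = 1.3e-05), where 6.79% of all genes were called higher (0.412% at the medium and 0.758% at the low dose). The other members were not called there: CXCL1 changed by 0.08 ± 0.27 on the log2 scale and CCL20 by 0.52 ± 0.41. Fresh ginger at the high dose had CXCL1 at 2.18, 1.91 and 2.23 CPM, the highest group mean of CXCL1 among ethanol extracts, with a log2 fold change of 0.56 ± 0.25 (edgeR adjusted p = 0.16). Of all genes, 2.99%, 0.823% and 1.35% were called higher with fresh ginger at the high, medium and low dose and 2.21%, 1.05% and 0.239% with Pinelliae Tuber, where no member was called.

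The ethanol calls depend in part on libraries that stand apart. Without the 3 of them, 6 of 60 tests were called: the same 3, CXCL1 with fresh ginger high dose (log2 fold change 1.07, adjusted p = 0.00044), CXCL8 with fresh ginger high dose (0.37, adjusted p = 0.026) and CXCL8 with Pinelliae Tuber high dose (0.48, adjusted p = 0.011). Leaving out vehicle replicate 1 alone was enough for CXCL1 with fresh ginger (1.06, edgeR adjusted p = 0.019). That library had 6.65% of its counts in ribosomal protein genes and the highest CXCL1 of vehicle, 2.55 CPM. Whether the ribosomal protein share plays a part in that level was not tested.

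Coptidis Rhizoma and Zizyphi Fructus had 1 library per dose, so their differences have no replicate check. At 320 µg/mL of Coptidis Rhizoma, the log2 ratio to the vehicle mean (pseudocount 0.5 CPM) was 1.93 for CCL20, 1.26 for CXCL2, 0.94 for CXCL3, 0.22 for CXCL1 and 0.07 for CXCL8. The pseudocount is larger than the vehicle means of CCL20 (0.230 CPM) and CXCL2 (0.455 CPM) and not far below that of CXCL3 (0.893 CPM). It makes the ratios of these genes smaller than their plain CPM ratios. CCL20 had 60 counts in that library (2.28 CPM, exact binomial 95% interval 1.74 to 2.94, counting error only) and CXCL2 had 47 (1.79 CPM, 1.31 to 2.38). CXCL8 was near vehicle and CXCL2 past 2-fold here, where skullcap root at its high dose had CXCL8 at 2.13-fold and CXCL2 not called. The figure for skullcap root is a fold change fitted by edgeR, so the sizes are not on the same measure. Of all genes, 6.02% had a log2 ratio above 1 in this library. At 64 and 12.8 µg/mL of Coptidis Rhizoma, and at 3 doses of Zizyphi Fructus, 0 of 5 members passed 2-fold. The shares of all genes with a log2 ratio above 1 were 0.686% and 0.221% at 64 and 12.8 µg/mL of Coptidis Rhizoma, and 0.137%, 0.149% and 0.0954% at the high, medium and low dose of Zizyphi Fructus.

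**Figure D3:**
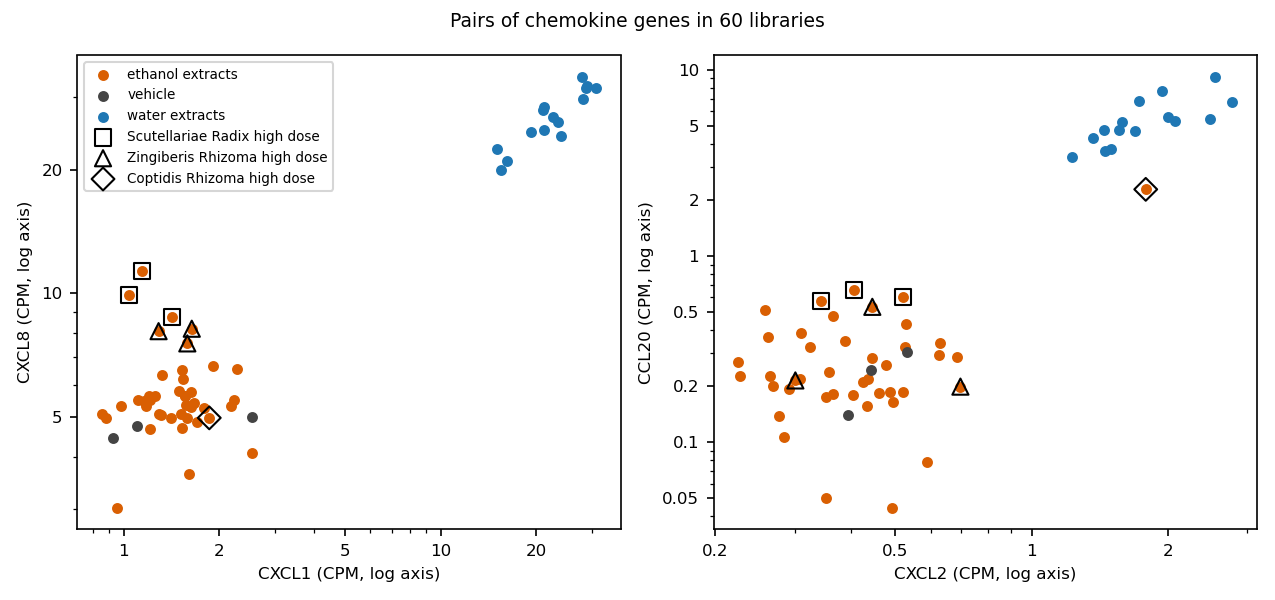
CXCL8 against CXCL1 (left) and CCL20 against CXCL2 (right) in CPM on log axes, 1 dot per library, coloured by vehicle, water or ethanol extract, with open symbols around 3 high-dose ethanol groups. Skullcap root and dried ginger lie above the other ethanol libraries in CXCL8 at CXCL1 levels between 1.04 and 1.64 CPM, and the Coptidis Rhizoma library lies apart in CXCL2 and CCL20 at a CXCL8 of 4.98 CPM.

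The direct contrast of the 2 water extracts with the 4 replicated ethanol extracts, in which vehicle drops out, called all 5 members higher at each dose, 15 of 15 tests, with no overlap between libraries. The share of all genes without such overlap is not given here. Of all genes, 1.37%, 0.716% and 0.412% were called higher in water extracts at the high, medium and low dose. The log2 difference at the high, medium and low dose was 3.91, 4.29 and 3.75 for CXCL1 and 3.95, 4.73 and 4.29 for CCL20. It was 2.15, 2.44 and 1.90 for CXCL2, 2.15, 2.47 and 2.00 for CXCL3 and 2.02, 2.50 and 2.08 for CXCL8. At the high dose the SE was 0.06 to 0.19 and the edgeR adjusted p 2.3e-11 for CXCL2 and lower for the rest. In mean log2 CPM over the 3 doses, 5 of 5 members had both water extracts above all 6 ethanol extracts, as had 3.3% of the genes tested.

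Within the water extracts no dose difference was called. From the low to the high dose the members changed with Sayeok-tang by 0.29 to 0.45 on the log2 scale and with Bojungikgi-tang by 0.24 to 0.46, and none was called, where 0.0954% and 0.0477% of all genes were called higher. For CXCL8 the change was 0.34 with both, with 95% intervals of 0.14 to 0.53 and 0.10 to 0.57 (edgeR adjusted p = 0.17 and 1.0). All 10 were above 0, where the median over all genes was 0.0011 with Sayeok-tang and 0.0007 with Bojungikgi-tang. Of the 5 members, 4 had their highest water-extract mean at the medium dose of Bojungikgi-tang (CXCL2 was at 2.25 CPM at the high and 2.24 CPM at the medium dose). With Sayeok-tang the medium mean also exceeded the high mean for CXCL1, CXCL2, CXCL8 and CCL20, with overlapping libraries. From the low to the medium dose 0 of 30 tests were called by edgeR or by DESeq2. Of the 30, 6 had an unadjusted p under 0.05, a threshold at which the share of all genes is not given here. The smallest unadjusted p among them was that of CXCL8 with Sayeok-tang, 0.38 ± 0.10 (edgeR adjusted p = 1.0, where 0 of 16763 genes were called). Of all genes, 0% were called in either direction with both formulas and both gingers, 0.0358% with Pinelliae Tuber and 4.22% with skullcap root.

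Which of these were called depended on the libraries in the fit. In a fit of only the libraries compared, CXCL1 and CXCL8 were called higher at the high than at the low dose in both water extracts (edgeR adjusted p = 0.00082 and 0.0034 with Sayeok-tang, 0.0097 and 0.0011 with Bojungikgi-tang), as was CCL20 (0.045 and 0.049). Without the 3 libraries that stand apart, none of which is from a water extract, CXCL1 and CXCL8 with Sayeok-tang were called (edgeR adjusted p = 0.0024 and 0.0047), and so was the medium against the low dose for both genes (0.00027 and 0.014). The log2 fold changes of CXCL1 and CXCL8 from low to high dose were 0.43 and 0.33 there. With no filter on low counts CXCL1 with Sayeok-tang was called for the high (edgeR adjusted p = 0.049) and the medium (0.00022) against the low dose.

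Among ethanol extracts, the 3 dose differences called were in the genes and extracts called against vehicle. With skullcap root CXCL8 was at 5.09, 5.62 and 6.55 CPM at the low dose and 6.32, 4.97 and 5.34 CPM at the medium dose, both below all 3 high-dose libraries. High against low gave 0.81 ± 0.12 for CXCL8 (edgeR adjusted p = 8.5e-07) and 1.29 ± 0.37 for CCL20 (adjusted p = 0.0099), where 10.7% of all genes were called higher. CCL20 lost its call without low-dose replicate 2 (1.00, edgeR adjusted p = 0.068) and in a fit of only the libraries compared (adjusted p = 0.14). With dried ginger CXCL8 rose by 0.52 ± 0.12 (edgeR adjusted p = 0.0029; 2.3% of genes called higher). CCL20 with fresh ginger had the largest fitted change, 1.42 ± 0.48, from 0.122 to 0.333 CPM, and was not called (adjusted p = 0.38; 0.185% of genes called higher, and 1.15% with Pinelliae Tuber). The dose effect itself differed between extracts in 2 of 75 tests (5 members, 15 pairs of extracts). CXCL8 changed less with fresh ginger than with skullcap root, by -0.72 ± 0.17 (edgeR adjusted p = 0.0065, 3.95% of genes called in either direction). It also changed less with Pinelliae Tuber than with skullcap root, by -0.65 ± 0.17 (edgeR adjusted p = 0.0095, 9.57% of genes). In the other pairs 0 to 758 of 16763 genes were called.

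**Figure D4:**
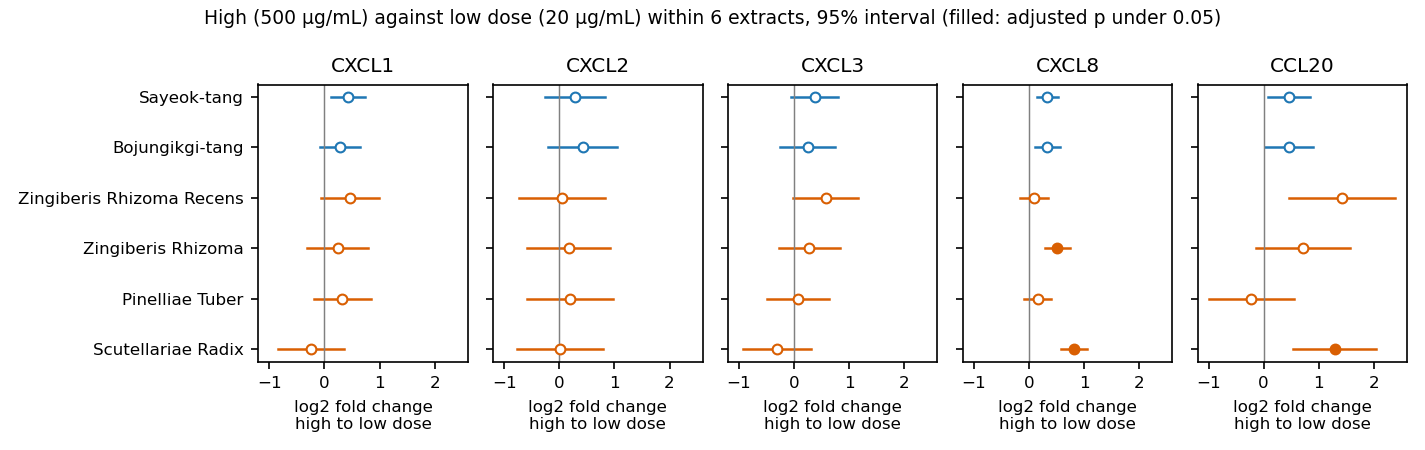
Log2 fold change from the low (20 µg/mL) to the high dose (500 µg/mL) with its 95% interval, for 5 genes (panels) and 6 extracts (rows), filled where the adjusted p is under 0.05. CXCL8 with dried ginger (0.52) and CXCL8 and CCL20 with skullcap root (0.81 and 1.29) are filled.

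Between the 2 water extracts, group means were lower with Sayeok-tang than with Bojungikgi-tang in 15 of 15 comparisons (5 members at 3 doses, same libraries in each). The median log2 difference over all genes was -0.0006, 0.0032 and 0.0018 at the high, medium and low dose. None of the 15 was called, where 1 of 16763 genes was called lower at the high dose (0.00597%) and none at the others. At an unadjusted p under 0.05 there were 9 of 15. The share of all genes at that threshold is not given here, so the 9 cannot be set against it. The largest difference was CCL20 at the medium dose, -0.72 ± 0.20 (95% interval -1.11 to -0.33, edgeR adjusted p = 1.0). For CXCL8 it was -0.25, -0.24 and -0.25 at the high, medium and low dose. CXCL1 was called lower with Sayeok-tang at the high and low dose in the fit of only the libraries compared (edgeR adjusted p = 0.0060 and 6.0e-05) and without the 3 libraries that stand apart (0.020 and 0.0017), and DESeq2 called none. The shares of all genes called in those fits are not given here.

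Of the other chemokines, CXCL6 and CXCL5, both neutrophil attractants whose genes lie in the same stretch of chromosome 4, were called higher with water extracts against ethanol extracts at each dose and with both formulas at the high dose against vehicle. CXCL6 spanned 1.95 to 6.19 CPM with water extracts and 0.0445 to 0.854 CPM in the other 45 libraries. CXCL5 had 0 counts in the 3 vehicle libraries and 1 in the 42 ethanol libraries, against 257 over the 15 water-extract libraries (0.272 to 1.42 CPM). Set against 3 counts over the vehicle libraries, it was at least 20.2-fold higher. Counting the members, all 6 tested genes of the 16 in that stretch were higher with water extracts at each dose, and 6 of the 16 had no count in any library. Of all genes, 1.37%, 0.716% and 0.412% were called higher at the high, medium and low dose. Of the 6, CXCL1, CXCL2, CXCL3 and CXCL8 are the members themselves. CXCL5 passed the filter on low counts only through the water-extract libraries, so it could hardly be called lower.

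In the full list of 21 other chemokines, 10 had enough counts to be tested, CXCL5 only through the water-extract libraries. With water against ethanol extracts at the high dose 3 were higher and 0 lower, with a median log2 difference of 0.45 against 0.00 over all genes. The third was CXCL10, a chemokine induced by interferon, at 1.31 ± 0.32 (edgeR adjusted p = 0.012), from 0.174 to 0.411 CPM. With Sayeok-tang at the high dose against vehicle CXCL5 and CXCL6 were called and the list median was 0.04. With skullcap root at the high dose 0 of 10 were higher and 2 were lower, CXCL11 and CCL28 (-0.57 ± 0.15, edgeR adjusted p = 0.0033). Of all genes, 11.5% were called higher there, and the share called lower is not given here, so the 2 cannot be set against it.

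The receptors of the members were barely detected in these cells. CXCR1 had no count in any of 60 libraries. CXCR2 had a count in 5 of 60 libraries, at most 1 each, and CCR6 in 13, at most 4. Of 17 chemokine receptors 5 were tested, and 0 were called in the water against ethanol contrasts at any dose.

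Of 37 inducers and their receptors, 22 were tested. IL17C, an epithelial cytokine of the IL-17 family, was higher in water than in ethanol extracts at all 3 doses, by 3.27 ± 0.40, 3.23 ± 0.35 and 3.64 ± 0.43 at the high, medium and low dose (edgeR adjusted p = 1.2e-07, 5.6e-09 and 1.7e-07), from at most 0.0891 CPM to at least 0.492 CPM. It passed the filter on low counts only through the water-extract libraries, so it could hardly be called lower. Against vehicle at the high dose IL17C rose with Bojungikgi-tang (3.50 ± 0.59, edgeR adjusted p = 0.00038) and missed the threshold with Sayeok-tang (2.20 ± 0.65, adjusted p = 0.051). TLR3, a sensor of double-stranded RNA, was higher (0.38 ± 0.09, adjusted p = 0.0059) and IRAK2, an IL-1 receptor kinase, lower (-0.20 ± 0.06, adjusted p = 0.028) at the high dose. TLR4, the receptor for bacterial lipopolysaccharide, rose against vehicle in 5 of the 6 extracts with replicates at the high dose: Sayeok-tang (0.47 ± 0.13, edgeR adjusted p = 0.042), skullcap root (0.66 ± 0.13, adjusted p = 0.00018), both gingers and Pinelliae Tuber. With Bojungikgi-tang it was at 0.42 ± 0.14 (edgeR adjusted p = 0.23), and it was not called between water and ethanol extracts at the high dose (-0.15 ± 0.09). Its partner LY96 had at most 3 counts in a library, TLR2 none, and IL1B and TNF at most 6 and 5.

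All 16 NF-kB subunits and inhibitors were tested and few moved. In water against ethanol extracts 1, 1 and 4 were higher at the high, medium and low dose and 0 were lower, with list medians of 0.02, 0.06 and 0.07 on the log2 scale. TNFAIP3, the feedback inhibitor A20, was at 0.18 ± 0.14, 0.61 ± 0.14 and 0.60 ± 0.14 and was called at the last 2 (edgeR adjusted p = 0.0086 and 0.016). NFKB2 rose against vehicle with Sayeok-tang at the high dose (0.42 ± 0.09, edgeR adjusted p = 0.0042). It was also called higher with dried ginger and skullcap root at the high dose, and not with Bojungikgi-tang at any dose. RELA (-0.07 ± 0.08) and NFKBIA (-0.02 ± 0.07) were not called in the contrast at the high dose.

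Among 15 other known NF-kB targets, 14 were tested, and 11, 10 and 10 were higher in water than in ethanol extracts at the high, medium and low dose, with 0 lower and list medians of 0.65, 0.71 and 0.59. Of all genes, 1.37%, 0.716% and 0.412% were called higher there. C3 and SAA1, at most 0.129 and 0.0393 CPM in other libraries, passed the filter on low counts only through the water-extract libraries. In these counts and those against vehicle they could hardly be called other than higher. C3, the central complement protein, was higher by 5.67 ± 0.28 at the high dose, from 0.0446 to 2.09 CPM. PI3, the elastase inhibitor elafin, was higher by 2.55 ± 0.10, from 3.16 to 17.9 CPM, and the complement factor CFB by 1.33 ± 0.12. The protease MMP7 (0.68 ± 0.07), the apoptosis inhibitor BIRC3 (0.62 ± 0.06) and the adhesion molecule ICAM1 (0.50 ± 0.09) were higher too. SAA1, an acute phase protein, had 0 counts in vehicle, 1 over the 42 ethanol libraries and 173 over the 15 water-extract libraries. Against vehicle, 8 of 14 were higher with Sayeok-tang and 7 with Bojungikgi-tang at the high dose. With skullcap root at the high dose 3 were higher (BIRC3, ICAM1 and IER3) and 3 lower (TNFAIP2, LCN2 and MMP7). Of all genes, 11.5% were called higher there, and the share called lower is not given here. Of 7 genes listed for control of mRNA decay, 1 was called in water against ethanol extracts at each dose, ZC3H12A, the endonuclease regnase-1. It was higher by 0.36 ± 0.08, 0.47 ± 0.08 and 0.46 ± 0.08 (edgeR adjusted p = 0.0023, 5.4e-05 and 0.00018).

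The genes whose group means ran most like those of the members were ranked by Pearson r over the 25 groups among 13359 genes, a description in which the groups share vehicle and code sets. They were PI3 (r = 0.97), CFB (0.90), the mitochondrial superoxide dismutase SOD2 (0.85), CCDC88B (0.82), ZC3H12A (0.82), the antibody transporter PIGR (0.80), BIRC3 (0.80) and the transcription factor POU2F2 (0.79). Over the 19 groups without water extracts the same r was 0.51 for PI3, 0.29 for CFB, 0.45 for SOD2, 0.47 for CCDC88B, 0.52 for ZC3H12A, -0.26 for PIGR, 0.63 for BIRC3 and 0.35 for POU2F2. PI3, SOD2 and PIGR, like the members CXCL1, CXCL3, CXCL8 and CCL20, had every water-extract mean above every other group mean. For PI3 the lowest water-extract mean was 11.3 CPM and the highest other 4.12 CPM. BIRC3 was at 9.21 CPM in its lowest water-extract group but reached 13.4 CPM in another group. Among the members themselves, r between pairs was 0.85 to 0.96 over 25 groups, and 0.02 to 0.75 over the 19 groups without water extracts, where CXCL8 had 0.12 with CXCL1 and CXCL2 had 0.75 with CXCL3.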

How the data were processed

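Libraries were made with a directional MGIEasy kit from 1 µg of RNA (RIN above 7) and read as 100 bp pairs, per the labels' protocols. The authors deposited a table of RSEM expected counts for 60675 genes; the submitters' processing notes name hg38 and the tools RSEM 1.3.3, STAR 2.7.3a, FastQC 0.11.9 and Trim Galore 0.6.5. No annotation release or strand setting is stated there. That table holds 210 columns that match no sample here and were not used. Between 90.0% and 92.1% of values per library were whole numbers; the rest were rounded.

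edgeR 4.0.16 (R 4.3.3) fitted 54 libraries of 19 groups together: filterByExpr by group (16763 genes kept), TMM, a trended dispersion and the robust quasi-likelihood test with Benjamini-Hochberg adjustment over all genes tested. This was tested on simulated data. Levels are CPM on TMM-scaled totals of all 60 libraries, and single-library groups were described by ratios, with binomial intervals on their levels. DESeq2 1.42.0 was an alternative. The 51 replicate pairs differed by more than sampling noise (chi-square per degree of freedom 2.14 to 123). Replicate numbers did not pair the samples by the labels.

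The members and gene lists were chosen with earlier results of these data known. Named genes are the members, their receptors, up to 4 genes per list with the smallest p in the high-dose water against ethanol contrast or called with Sayeok-tang high dose, and the 8 genes most like the members in group means. Other genes were named after their values were seen.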

Additional observations from a re-analysis of the deposited data

Results flagged for a closer look

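CXCL8 responded to dose differently in 2 pairs of extracts, by a test of the difference itself. These are 2 of 75 tests of members. Its change from the low to the high dose was 0.09 on the log2 scale with fresh ginger and 0.81 with skullcap root. The difference was -0.72 (edgeR adjusted p = 0.0065), where 3.95% of all genes were called in either direction. With Pinelliae Tuber the change was 0.16, and the difference from skullcap root was -0.65 (edgeR adjusted p = 0.0095), where 9.57% of all genes were called. In the other pairs of extracts 0 to 758 of 16763 genes were called, and no member. Pinelliae Tuber high-dose replicate 2 and skullcap root low-dose replicate 3 are among the 3 libraries with unusual mitochondrial or ribosomal protein counts, and their part in these differences was not tested.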

How the results depend on the processing

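No called result reversed under the alternatives run. Members called with water extracts against vehicle (30) and in water against ethanol extracts (5 at each dose) kept those counts with library totals, DESeq2, DESeq2 size factors, no filter on low counts and without the 3 libraries that stand apart; in a fit of only the libraries compared CXCL2 with Bojungikgi-tang low dose was lost. The summed counts of CXCL1, CXCL2 and CXCL3, which leave CXCL8 and CCL20 aside, kept the call of each of the 3 genes in every comparison. Where none of the 3 was called their signs can differ. High against low dose of skullcap root gave -0.24, 0.01 and -0.31 for CXCL1, CXCL2 and CXCL3, so the sum cannot share the direction of all 3 there. With both water extracts set above all 6 ethanol extracts at each dose alone, 4 members passed at the high dose and 5 at the others. The shares of all genes that passed at a single dose are not given here. Ethanol against vehicle went from 3 to 6 calls without the libraries that stand apart, high against low dose from 3 to 5, and Sayeok-tang against Bojungikgi-tang from 0 to 2. In a fit of only the libraries compared the last 2 counts were 8 and 2, and with no filter on low counts Sayeok-tang against Bojungikgi-tang gave 1 and high against low dose 4. The cause was not tested. Leaving out 1 replicate at a time gave 29 to 30 calls for water against vehicle, 3 to 5 for ethanol against vehicle (5 without Pinelliae Tuber high-dose replicate 2), 5 to 5 for water against ethanol extracts at each dose, 2 to 4 for high against low dose and 0 to 0 between the formulas. With the replicate number as a block the counts were 30, 3, 5, 5, 5, 3 and 0. The numbers showed little pairing: over 33 comparisons the correlations of same-numbered libraries ran from -0.565 to 0.329. CCL20 and CXCL2 rest on under 20 counts in most vehicle and ethanol libraries, which limits what can be told there. Counts of all genes called moved by over 1.5 times in 15 of 36 comparisons with DESeq2 and 29 of 36 without the libraries that stand apart. They did so in 24 of 36 in a fit of only the libraries compared and 28 of 36 with no filter on low counts. Member counts from these fits therefore cannot be set against the shares of the main fit.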
